A study of Mus musculus with 6 samples.

Results

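The genes described here encode collagens and other proteins of the extracellular matrix, together with the proteases, protease inhibitors and crosslinking enzymes that remodel it. They are 43 listed genes, chosen by name and matched by Ensembl identifier, out of 53801 genes counted per library. All 43 were found. They were sorted by role into 9 classes: fibril and fibril-associated collagens (7 genes), collagen VI (3), basement membrane proteins (10), small leucine-rich proteoglycans (3), glycoproteins and fibrillins (6), neural matrix (6), metalloproteases (3), protease inhibitors (3) and crosslinking enzymes (2). A second sorting set 18 genes typical of fibroblast matrix against the 6 of the neural matrix class.

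RNA came from mouse neural progenitor cells (NPCs), dividing cells of the neural lineage made from mouse embryonic stem cells of a BL/6J x CAST-EiJ hybrid background. In every library the cells had SPEN fused to an AID degron, which makes the protein break down when auxin, a plant hormone, is added. There were 2 subclones, clone 31 and clone 30, and each gave 1 library after 48 h of auxin, 1 after 24 h and 1 without treatment, which makes 6 libraries. Auxin was used at 500 uM, and all cells grew on gelatin in N2B27 medium that held 10 ng/ml of EGF and of FGF. No line without the degron and no auxin-treated line without it enters the comparisons, so the effects of auxin and of SPEN loss cannot be told apart. Each clone is 1 line, and its 3 libraries differ in treatment, so p-values measure the spread between these libraries and not between independently derived lines.

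Connective tissue matrix is built on fibrils of collagens I, III and V, whose spacing and assembly are tuned by small leucine-rich proteoglycans, and it is made mostly by fibroblasts. Brain matrix is poor in fibrils. It is rich in hyaluronan bound by the chondroitin sulphate proteoglycans versican, brevican, neurocan and aggrecan, which tenascins crosslink, and fibrillar collagen is largely limited there to vessels and meninges. Basement membranes, which neural stem cells contact, are sheets of laminins and collagen IV joined by nidogens and perlecan. Matrix metalloproteases cut these proteins, TIMPs inhibit the metalloproteases, and lysyl oxidases crosslink collagen and elastin.

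Total counts ran from 24603816 to 43008978 per library, and the 43 genes held between 1.08% and 1.27% of them. A floor of 3 counts corresponded to 0.070 to 0.122 CPM, that is, read counts scaled to the library total with TMM factors, and such floors cover counting error only. The degron acts on protein, so Spen RNA does not check it. Spen had 116, 218 and 259 CPM in clone 31 and 92.4, 174 and 200 CPM in clone 30 (untreated, 24 h and 48 h). NPC markers were abundant, with Vim at 1206 CPM or more, Nes at 648 CPM or more and Sox2 at 192 CPM or more in every library, while Sox1 and Nr2e1 were at or near 0. Some markers of other matrix-producing cells were at or near 0. The fibroblast gene Tcf21, the endoderm gene Sox17 and the neural crest genes Foxd3 and Tfap2b had 0 counts in all 6 libraries. The endothelial gene Cldn5 had 0 CPM in 5 libraries and 0.032 CPM in the other. Other genes of the same lists were expressed. Over the libraries, the fibroblast list summed to 54.1 to 115 CPM and the endothelial and pericyte list to 288 to 490 CPM. The endoderm list summed to 13.4 to 22.1 CPM and the neural crest list to 9.70 to 84.7 CPM.

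Levels of the 43 genes, as CPM per kb of exon, ran from a mean of 392 over the 6 libraries to 0.0020. The highest were Sparc, a collagen-binding glycoprotein, at that mean of 392 CPM per kb, and Tnc, the hyaluronan-matrix crosslinker tenascin C, with 235. Next came Ncan (neurocan) with 139, the membrane-type protease Mmp15 with 127, Bcan (brevican) with 123 and Ptprz1, a receptor phosphatase whose secreted form is the proteoglycan phosphacan, with 106. Ranges of neighbours in this order overlapped: Ncan ran from 82.5 to 224 CPM per kb over the libraries, Mmp15 from 91.8 to 158, Bcan from 98.2 to 153 and Ptprz1 from 75.5 to 143. Of the neural matrix class, Vcan (versican) followed at 62.2 CPM per kb, and Acan (aggrecan, of perineuronal nets and cartilage) stood near the bottom at 0.049.

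Type I collagen, the main fibril of connective tissue, was almost absent. Its chain Col1a1 averaged 0.299 CPM per kb, and Col1a2 had 0 to 2 counts per library and 5 in all. Col5a2, the partner chain of Col5a1 in collagen V, had 0 to 2 counts per library and 9 in all, while Col5a1 stood at 12.1 CPM per kb. Col1a2 and Col5a2 did not pass the filter on low counts, so 41 of the 43 genes were tested. Summed over the class, the 6 neural matrix genes had 607, 658 and 768 CPM per kb in clone 31 and 625, 717 and 624 in clone 30 (untreated, 24 h and 48 h). The 18 fibroblast-type genes summed to 187, 177 and 191 CPM per kb in clone 31 and to 138, 138 and 141 in clone 30. Neural matrix as listed thus exceeded fibroblast-type matrix as listed in every library, by a factor of 3.25, 3.72 and 4.03 in clone 31 and of 4.54, 5.19 and 4.42 in clone 30. The ratio depends on what is listed: Mmp2 alone gave 74.5 CPM per kb of the fibroblast-type sum in untreated clone 31 and 90.1 in untreated clone 30, and Sparc, which is in neither list, had 282 and 480 CPM per kb in the same libraries.

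**Figure D1:**
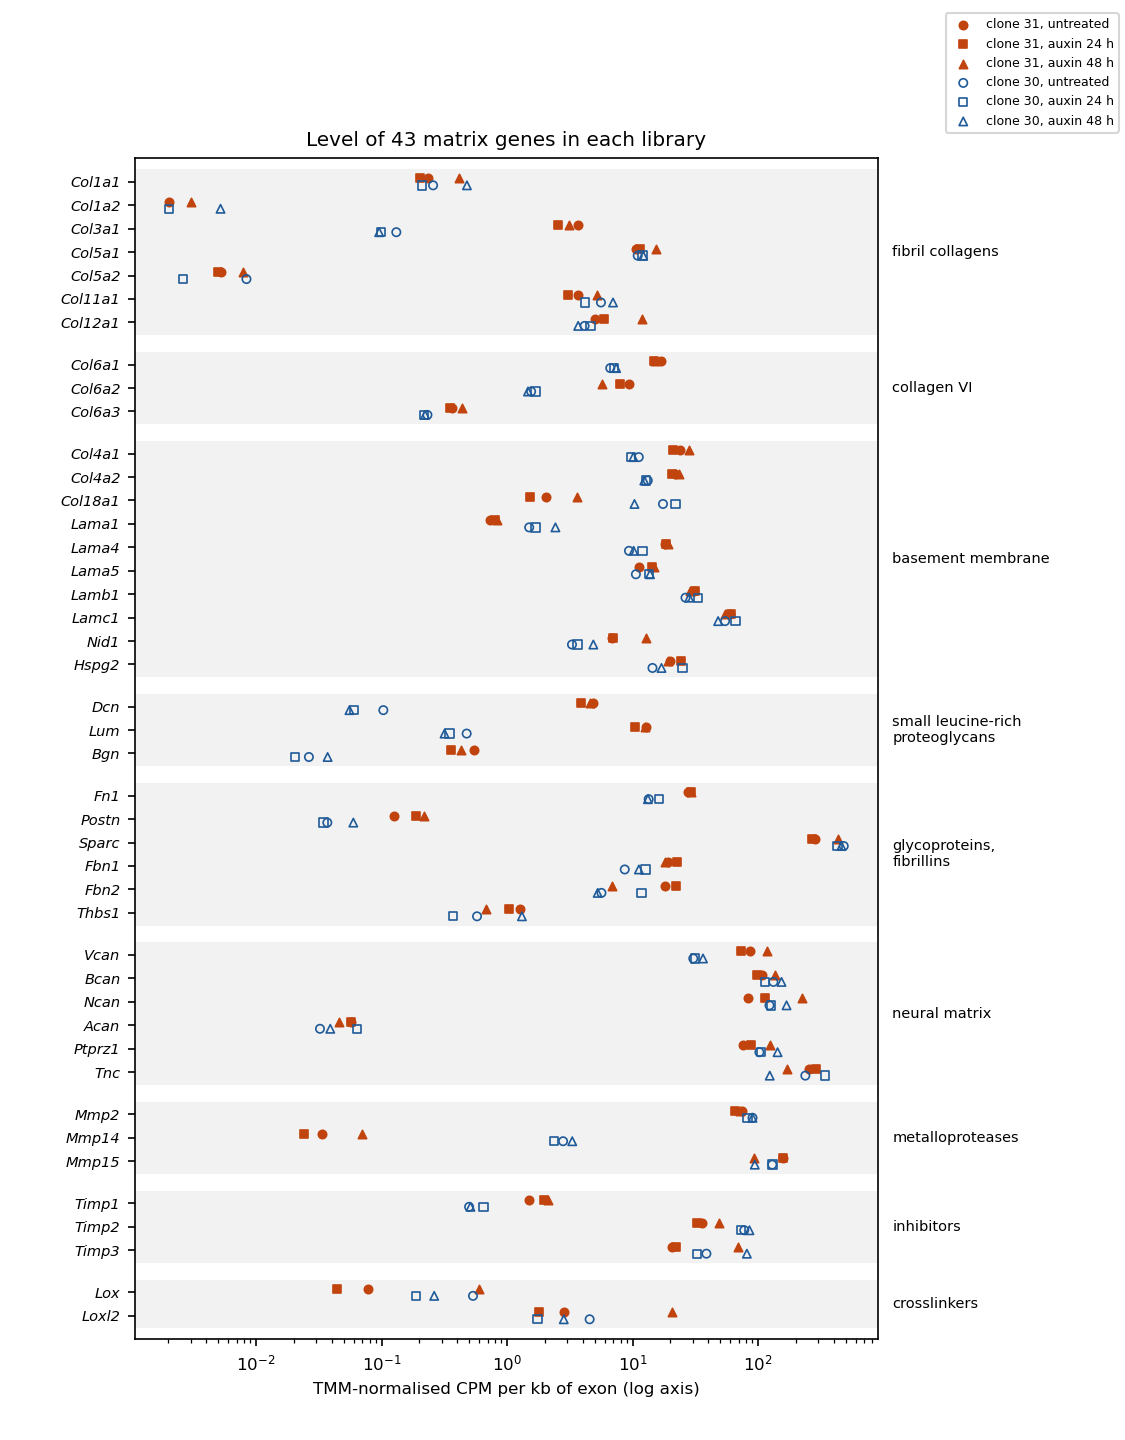
Level of each of the 43 genes in each library, as TMM-normalised CPM per kb of exon on a log axis, grouped by role; filled orange symbols are clone 31, open blue symbols clone 30, and libraries at 0 are not drawn. Dcn, Lum, Bgn and Col3a1 lie far higher in clone 31 and Mmp14 far higher in clone 30, while Sparc and the neural matrix genes other than Acan stay among the highest in both.

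The largest differences among these genes lay between the 2 clones. With treatment group and clone as terms in edgeR's quasi-likelihood test, 24 of the 41 genes tested differed at a Benjamini-Hochberg adjusted p under 0.05, as did 16.2% of all 15492 genes tested in this comparison. Clone 31 was higher for 17 of them (background 7.58%) and lower for 7 (background 8.58%), and the median log2 difference was 0.22, against 0.01 over all genes. In 17 of the 41 genes every clone 31 library lay above every clone 30 library, and in 6 every one lay below (11.6% of all genes in each direction). The filter kept Bgn through clone 31 alone, since no clone 30 library reached its level of 0.289 CPM, and Mmp14 through clone 30 (1 clone 31 library reached that level), so these 2 had to differ. In bulk RNA, fewer cells making a transcript and less transcript per cell cannot be told apart.

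Small leucine-rich proteoglycans, which bind collagen fibrils and set their diameter, differed most. Dcn (decorin, chr10:97479609-97518143) had 28.3, 22.7 and 26.9 CPM in clone 31 (untreated, 24 h and 48 h), against 0.602, 0.35 and 0.323 CPM in clone 30. Lum (lumican, chr10:97565128-97572703) had 31.3, 25.7 and 30.6 CPM in clone 31, against 1.16, 0.85 and 0.776 CPM in clone 30. The clones did not overlap for either gene at any time, with log2 differences of 5.95 ± 0.18 for Dcn and 4.97 ± 0.15 for Lum (SE; edgeR adjusted p = 0.00029 each). Bgn (biglycan), the third gene of the class, had 132, 92 and 69 counts in clone 31 and 4, 5 and 7 in clone 30 (log2 difference 3.94 ± 0.27, edgeR adjusted p = 0.00166).

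Among 5 tested fibril collagens 1 was higher and 1 lower in clone 31 (background 7.58% and 8.58%). Col3a1, the chain of collagen III in skin and vessels, had 35.7, 24.7 and 30.5 CPM in clone 31, against 1.28, 0.975 and 0.938 CPM in clone 30. Its clones did not overlap, and the log2 difference was 4.81 ± 0.13 (edgeR adjusted p = 0.00029). Col11a1, a minor fibril chain, was lower in clone 31, with 47.0, 38.6 and 66.8 CPM against 71.2, 53.2 and 88.8 CPM in clone 30 (log2 difference -0.49 ± 0.08, edgeR adjusted p = 0.0132). The clones overlapped for Col11a1, and the difference shows within each time. Col5a1, the collagen V chain that starts fibril assembly, was close in both, at 90.1, 96.3 and 129.9 CPM in clone 31 and 93.1, 101.9 and 102.9 CPM in clone 30 (log2 difference 0.07 ± 0.10, edgeR adjusted p = 0.707). Col1a1 had 1.33 to 2.71 CPM in clone 31 and 1.38 to 3.14 CPM in clone 30 and was not called (edgeR adjusted p = 0.634).

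The 3 chains of collagen VI, which forms beaded microfilaments around cells, were all higher in clone 31 (background 7.58%). Col6a2 had 77.5, 65.9 and 47.7 CPM in clone 31, against 12.9, 14.0 and 12.2 CPM in clone 30, a log2 difference of 2.26 ± 0.13 (edgeR adjusted p = 0.00133). For Col6a1 the values were 73.9, 64.7 and 66.2 CPM in clone 31 and 29.0, 31.3 and 32.3 CPM in clone 30 (1.14 ± 0.09, edgeR adjusted p = 0.00258). Col6a3 ran from 4.17 to 5.20 CPM in clone 31 and from 2.60 to 2.77 CPM in clone 30 (0.77 ± 0.16, edgeR adjusted p = 0.0271). None of the 3 genes overlapped between the clones.

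Within the basement membrane class the direction was mixed, with 4 of 10 genes higher and 2 lower in clone 31 (background 7.58% and 8.58%). Collagen IV, the network-forming collagen of basement membranes, was among the higher ones: Col4a1 had 177, 156 and 211 CPM in clone 31, against 83.4, 72.4 and 75.5 CPM in clone 30 (log2 difference 1.22 ± 0.10, edgeR adjusted p = 0.00261). Its partner Col4a2 had 143, 137 and 155 CPM in clone 31, against 87.2, 84.8 and 81.9 CPM in clone 30 (0.77 ± 0.08, edgeR adjusted p = 0.00431). Nid1 (nidogen, the laminin-collagen IV linker) and the laminin chain Lama4 were higher in clone 31 by 1.13 ± 0.11 and 0.83 ± 0.09 on the log2 scale. Col18a1, whose C-terminal fragment is endostatin, went the other way: 14.3, 10.7 and 25.1 CPM in clone 31 against 122, 154 and 72.5 CPM in clone 30 (-2.83 ± 0.44, edgeR adjusted p = 0.0131). Lama1, the laminin chain of the early embryo, had 6.98, 7.66 and 7.87 CPM in clone 31, against 14.3, 15.95 and 23.1 CPM in clone 30 (-1.21 ± 0.14, edgeR adjusted p = 0.00623). Lama5, Lamb1, Lamc1 and Hspg2 (perlecan) were not called, with log2 differences between 0.05 and 0.20.

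Fn1 (fibronectin, the cell-adhesive glycoprotein) was higher in clone 31 at every time, with 321, 339 and 340 CPM against 157, 190 and 154 CPM in clone 30 (log2 difference 1.0 ± 0.09, edgeR adjusted p = 0.00299). Fbn1, the microfibril protein fibrillin 1, had 231, 276 and 218 CPM in clone 31, against 105, 153 and 136 CPM in clone 30 (0.89 ± 0.10, edgeR adjusted p = 0.0062). Fbn2 (fibrillin 2) and Postn (periostin, under 2 CPM in every library) were also called higher in clone 31, at 0.98 ± 0.24 and 2.04 ± 0.26. Sparc was not called: it had 1070, 1025 and 1623 CPM in clone 31 and 1819, 1625 and 1742 CPM in clone 30 (-0.51 ± 0.15, edgeR adjusted p = 0.079). Its clone 31 libraries all lay below those of clone 30. Sparc was called lower in clone 31 by DESeq2, with scaling to total counts, with no filter and without either 48 h library.

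Of the 6 neural matrix genes Vcan was called between the clones. Its level was 1235, 1051 and 1689 CPM in clone 31, against 439, 456 and 525 CPM in clone 30, without overlap (log2 difference 1.46 ± 0.12, edgeR adjusted p = 0.00252). Bcan, Ncan, Ptprz1, Tnc and Acan had log2 differences between -0.31 and 0.22 and were not called. Ptprz1 (edgeR adjusted p = 0.0962) and Bcan (edgeR adjusted p = 0.112) lay lower in clone 31 at each time. Ptprz1 was called lower by DESeq2, Ptprz1 and Bcan with scaling to total counts, and these 2 and Ncan without either 48 h library. Set side by side, the fibroblast-type list had 11 of its 16 tested genes higher in clone 31 and 1 lower (Mmp2), with a median log2 difference of 1.07, and the neural matrix list had 1 of 6 higher and 0 lower, with a median of 0. Both lists stand beside a background of 7.58% higher and 8.58% lower, and the 11 include Bgn, which the filter kept through clone 31 alone. Versican is also made by fibroblasts, so its place in the neural list is one of convention.

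Of the 3 metalloproteases 2 were lower in clone 31, and of the 3 protease inhibitors 2 were lower and 1 was higher. The background was 8.58% lower and 7.58% higher. Among 20 tested genes of a further list of matrix proteases and inhibitors, 6 were higher in clone 31 and 2 lower. Mmp14, the membrane-anchored collagenase that activates Mmp2 (chr14:54431612-54445364), had 0.200, 0.142 and 0.414 CPM in clone 31, against 16.6, 14.1 and 19.7 CPM in clone 30. That is 8, 6 and 11 counts against 414, 564 and 608, a log2 difference of -6.13 ± 0.23 (edgeR adjusted p = 0.000422). Mmp2 itself, a gelatinase, was only slightly lower, with 251, 220 and 241 CPM in clone 31 against 304, 277 and 304 CPM in clone 30 (-0.32 ± 0.07, edgeR adjusted p = 0.036). Timp2, the inhibitor that takes part in Mmp2 activation by Mmp14, had 139, 126 and 189 CPM in clone 31, against 302, 285 and 332 CPM in clone 30 (-1.04 ± 0.10, edgeR adjusted p = 0.00347). Timp3, an inhibitor that is bound to matrix, was lower in clone 31 by 0.57 ± 0.14 on the log2 scale, and Timp1, under 2 CPM in every library, was higher by 1.74 ± 0.23. Mmp15, Lox, Loxl2, Thbs1 (thrombospondin 1) and Col12a1 were not called between the clones, with log2 differences from -0.93 to 0.76.

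**Figure D2:**
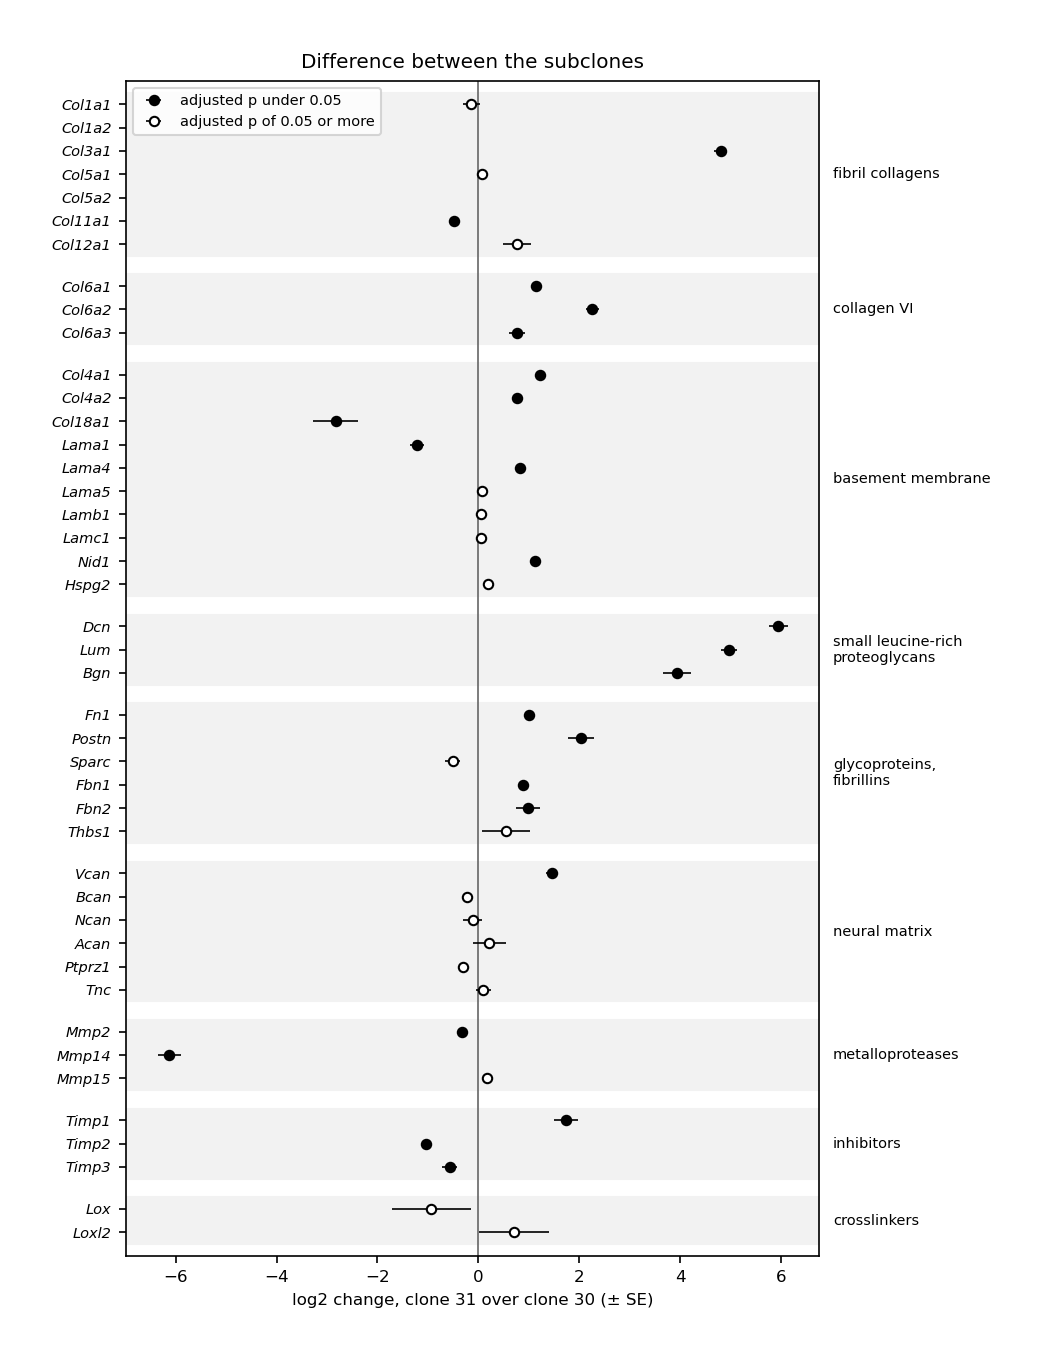
Log2 difference of clone 31 over clone 30 with its SE for the 41 genes tested (edgeR, treatment group and clone as terms, 3 libraries per clone), grouped by role; filled points have an adjusted p under 0.05. Dcn, Lum, Col3a1 and Bgn stand between 3.94 and 5.95, Col18a1 at -2.83 and Mmp14 at -6.13.

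Of the 24 genes called between the clones, 16 were called under all 14 alternatives tried. Among them were Dcn, Lum, Col3a1, Col6a1, Col6a2, Col4a1, Col4a2 and Vcan. Bgn and Mmp14 are also counted in the 16, but the filter kept each through the clone in which it is higher, so their calls carry no weight here. Omitting a 48 h library gave 32 calls in either clone, while 30.9% (clone 31) and 30.8% (clone 30) of all genes were called. Omitting the 24 h library gave 17 calls (clone 31; 4.46% of all genes) and 18 (clone 30; 4.51%), and omitting the untreated one gave 20 (clone 31; 11.1%) and 19 (clone 30; 10.9%). Col11a1, Col6a3, Col18a1, Fbn2, Mmp2, Timp3, Nid1 and Postn lost the call under at least 1 alternative. Without the untreated or the 24 h library of either clone, Col6a3, Col18a1, Mmp2 and Timp3 were not called.

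Some markers of mesenchyme differed between the clones. The list of 14 fibroblast and mesenchymal markers summed to between 104 and 115 CPM in clone 31 and between 54.1 and 78.2 CPM in clone 30. Of the 11 tested, Prrx1, Pdgfrb and Foxc1 were higher in clone 31 (background 7.58%) and Acta2 was lower (background 8.58%), and the median log2 difference was 0.23. Much of the summed difference is Prrx1, which had 33.4, 29.4 and 60.0 CPM in clone 31, against 10.9, 8.73 and 12.2 CPM in clone 30. Pdgfrb had 0.64 to 1.28 CPM in clone 31 and 0.16 to 0.291 CPM in clone 30. With a filter level of 0.289 CPM, Pdgfrb was kept through clone 31, so its call carries no weight here. Tcf21 was at 0 in all libraries, and Fap and Meox1 stayed at 0.264 CPM or less. The astrocyte list moved the other way, with 5 of 8 genes lower in clone 31 (Aldh1l1, Gfap, Gja1, Slc1a2 and Slc4a4). The part of these cell type differences in the matrix differences was not tested.

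Several of the genes lie next to each other in the genome, at positions given on GRCm38. Dcn and Lum are 46984 bp apart on the same strand of chromosome 10 and both were higher in clone 31. The nearest tested genes outside this pair, Btg1 and Atp2b1, were not called (log2 differences -0.25 and 0.33). Col6a2 and Col6a1 are 85161 bp apart on chromosome 10 and were both higher, as was Lss, a cholesterol synthesis gene on the other side of Col6a2 (log2 difference 1.77, edgeR adjusted p = 0.000501). On the other side of Col6a1, Pcbp3 was not called (-0.10), and Col18a1 beyond it was lower in clone 31 (-2.83). Hapln1, which encodes a link protein that joins versican to hyaluronan, lies 43659 bp from Vcan and was also higher (1.53, edgeR adjusted p = 0.0434). Its level was low, with means of 1.13 CPM in clone 31 and 0.388 CPM in clone 30. Xrcc4, on the other side of Vcan, was not called (0.07). Next to Mmp14, the nearest tested genes Mrpl52 and Lrp10 had log2 differences of 0.03 and 0.27 and were not called. Next to Col3a1, Col5a2 was near 0 in both clones, 24614 bp away. The nearest tested genes around Col3a1 did not share its direction. Gulp1 was lower in clone 31 (-0.48, edgeR adjusted p = 0.0489), and Wdr75 was not called (-0.23). Col4a1 and Col4a2 start head to head on chromosome 8, on opposite strands with overlapping first bases.

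Promoter windows are shown for genes on which the results turn: Col3a1 and Mmp14, which differed most between the clones among genes with a window, Col4a2, whose window covers the shared start with Col4a1, and Timp3 and Tnc, which changed with auxin. They were read from RefSeq on GRCm38.p6 and run from 250 bases before to 50 after the start. Of the 43 genes, 29 had a window. Capitals mark matches, on either strand, to the TATA box TATAAA, the RBPJ motif GTGGGAA and the SP factor motif GGGCGG, which are in 13.6%, 6.38% and 35.7% of all 32851 windows. RBPJ is the DNA-binding protein of the Notch pathway with which SPEN is known to act. The windows are chr1:45311288-45311587 (Col3a1, plus strand), chr14:54431348-54431647 (Mmp14, plus), chr8:11312555-11312854 (Col4a2, plus), chr10:86300162-86300461 (Timp3, plus) and chr4:64046966-64047265 (Tnc, minus).
Col3a1: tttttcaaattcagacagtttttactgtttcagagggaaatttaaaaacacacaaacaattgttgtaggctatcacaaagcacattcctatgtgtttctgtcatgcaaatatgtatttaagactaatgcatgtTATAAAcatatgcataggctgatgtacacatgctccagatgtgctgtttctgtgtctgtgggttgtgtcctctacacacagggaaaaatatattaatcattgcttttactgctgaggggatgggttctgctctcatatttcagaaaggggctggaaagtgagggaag
Mmp14: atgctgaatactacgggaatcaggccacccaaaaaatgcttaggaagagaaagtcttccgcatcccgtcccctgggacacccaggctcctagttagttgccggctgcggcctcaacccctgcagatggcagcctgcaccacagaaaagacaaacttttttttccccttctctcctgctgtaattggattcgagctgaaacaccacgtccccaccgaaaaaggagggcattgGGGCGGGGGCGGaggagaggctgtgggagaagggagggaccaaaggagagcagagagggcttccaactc
Col4a2: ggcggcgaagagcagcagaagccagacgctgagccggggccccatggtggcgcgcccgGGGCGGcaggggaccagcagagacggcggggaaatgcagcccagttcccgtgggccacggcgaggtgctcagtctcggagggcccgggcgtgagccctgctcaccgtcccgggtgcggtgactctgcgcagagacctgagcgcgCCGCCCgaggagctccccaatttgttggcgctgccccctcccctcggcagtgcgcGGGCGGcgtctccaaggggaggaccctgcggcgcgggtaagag
Timp3: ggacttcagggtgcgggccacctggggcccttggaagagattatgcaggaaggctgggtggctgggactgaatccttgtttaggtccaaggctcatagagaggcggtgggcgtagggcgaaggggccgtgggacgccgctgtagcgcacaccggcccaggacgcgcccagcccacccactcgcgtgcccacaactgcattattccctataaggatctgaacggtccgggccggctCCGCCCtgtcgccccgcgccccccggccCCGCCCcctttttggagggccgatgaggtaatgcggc
Tnc: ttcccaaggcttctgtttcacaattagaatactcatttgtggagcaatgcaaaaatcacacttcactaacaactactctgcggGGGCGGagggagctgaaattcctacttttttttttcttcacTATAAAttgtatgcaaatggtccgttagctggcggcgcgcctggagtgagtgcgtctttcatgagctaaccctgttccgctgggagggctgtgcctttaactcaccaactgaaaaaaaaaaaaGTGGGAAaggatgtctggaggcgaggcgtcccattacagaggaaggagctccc

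The Col3a1 window had TATAAA once and 0 CpG dinucleotides, which 5.43% of all windows share. The Mmp14 window had 10 CpG and 2 matches to GGGCGG. The Col4a2 window had 33 CpG and 3 matches to GGGCGG. In the Timp3 window there were 24 CpG and 2 matches to GGGCGG, and in that of Tnc there were 10 CpG and 1 match to each of the 3 motifs. Over the 29 windows the median was 14 CpG, against 7 over all windows, and TATAAA was found in 4, GTGGGAA in 5 (Hspg2, Fbn1, Vcan, Ncan and Tnc) and GGGCGG in 24. A match is a description of these letters and not a binding site.

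After 48 h of auxin, 9 matrix genes of 5 classes were called. Timp3, Nid1, Ncan, Ptprz1, Lama5, Col11a1 and Col1a1 were higher than in untreated cells, and Tnc and Mmp15 were lower. These calls come from the fit that has clone as a block and thereby matched each treated library with the untreated library of its own line: 9 of 41 genes, of which 7 higher and 2 lower, against a background of 17.4% of 16007 genes (8.35% higher and 9.08% lower). With treatment group as the only term, edgeR called 0 of the 41 genes and 0% of all genes. In that design 7 of the 41 had an unadjusted p under 0.05, limma voom made 0 calls and DESeq2 made 5 (10.4% of all genes). The share of 9 in 41 stands near the background. The median log2 change of the 41 genes was 0.14, and that of all genes 0.02.

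The call count at 48 h rested on single libraries. On simulated data the block, clone and interaction designs also made more false calls than their threshold allows, so an adjusted p just under 0.05 is less firm than it reads. With the block, omitting an untreated library gave 0 calls for that of clone 31 and 6 for that of clone 30. Omitting either 24 h library gave 1 call (Timp3), and omitting a 48 h library gave 11 calls for that of clone 31 and 21 for that of clone 30. When a 48 h library is left out, the clone that remains carries the value alone. In the same fits the share of all genes called ran from 0.0367% (without the untreated library of clone 31) to 39.4% (without the 48 h library of clone 30).

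Timp3 (chr10:86300372-86349506) had the clearest change. It stood at 167, 180 and 560 CPM in clone 31 (untreated, 24 h and 48 h) and at 315, 265 and 661 CPM in clone 30. Both 48 h libraries lay above the other 4, and the log2 change at 48 h was 1.41 ± 0.17 (SE; edgeR with the block, adjusted p = 0.0238). Exons of Timp3 share 21.3% of their length with Syn3 on the opposite strand, which had 292 counts over all libraries against 67994 for Timp3. Timp2 had log2 changes at 48 h of 0.44 in clone 31 and 0.14 in clone 30 and was not called, nor was Timp1.

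Among metalloproteases, Mmp15 fell: it had 850, 854 and 495 CPM in clone 31 and 698, 701 and 507 CPM in clone 30, flat to 24 h and lower at 48 h (log2 change -0.62 ± 0.12, edgeR with the block, adjusted p = 0.0323). Mmp2 stayed within 220 to 251 CPM in clone 31 and 277 to 304 CPM in clone 30 (-0.03 ± 0.09). Mmp14 was not called at 48 h (0.36 ± 0.24).

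In the neural matrix class, 2 of 6 genes rose and 1 fell (background 8.35% higher and 9.08% lower). Ncan, a proteoglycan of developing brain, had 594, 816 and 1608 CPM in clone 31 and 885, 905 and 1209 CPM in clone 30 (log2 change at 48 h 0.95 ± 0.23, edgeR with the block, adjusted p = 0.046). Ptprz1 had 1075, 1240 and 1766 CPM in clone 31 and 1456, 1507 and 2032 CPM in clone 30 (0.60 ± 0.12, adjusted p = 0.033 by edgeR with the block). For both genes the 48 h libraries lay above all untreated ones. Tnc (chr4:63959785-64047015) had 1988, 2227 and 1310 CPM in clone 31 and 1844, 2646 and 960 CPM in clone 30, with both 48 h libraries lowest (-0.76 ± 0.19, adjusted p = 0.0449 by edgeR with the block). Bcan had 551 and 623 CPM at 48 h in clones 31 and 30, against 439 and 537 CPM untreated, without overlap, and it was not called (0.27 ± 0.10, edgeR with the block, adjusted p = 0.104). Vcan was not called either (0.36 ± 0.14, edgeR with the block, adjusted p = 0.13), and Acan stayed at 0.475 CPM or less in all libraries.

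Basement membrane genes had 2 of 10 called, both higher (background 8.35% higher and 9.08% lower). Nid1 had 47.4, 48.4 and 88.2 CPM in clone 31 and 22.8, 25.2 and 33.7 CPM in clone 30 (log2 change at 48 h 0.74 ± 0.13, edgeR with the block, adjusted p = 0.028). The groups overlapped for Nid1 because the clones differ in level, while each clone was highest at 48 h. Lama5, the most widespread laminin alpha chain in adult basement membranes, had 128, 161 and 168 CPM in clone 31 and 121, 153 and 157 CPM in clone 30, and so had reached its higher level at 24 h (0.38 ± 0.08, adjusted p = 0.0351 by edgeR with the block). The other 8 had log2 changes between -0.15 (Lamc1) and 0.45 (Lama1) and were not called.

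Of the fibril collagens, Col11a1 and Col1a1 were called. Col11a1 dipped at 24 h and stood highest at 48 h in both clones, at 47.0, 38.6 and 66.8 CPM in clone 31 and 71.2, 53.2 and 88.8 CPM in clone 30 (log2 change at 48 h 0.41 ± 0.09, edgeR with the block, adjusted p = 0.0395). Col1a1, at a low level, had 2.71 and 3.14 CPM at 48 h in clones 31 and 30, against 1.53 and 1.69 CPM untreated (0.86 ± 0.21, edgeR with the block, adjusted p = 0.046). DESeq2 with the block did not call Col1a1 (adjusted p = 0.0992). The 3 collagen VI chains and the small leucine-rich proteoglycans, all called between the clones, were not called at 48 h, with log2 changes between -0.42 and 0.11. Of the 16 tested fibroblast-type genes 1 rose (Col1a1) and 0 fell, beside a background of 8.35% higher and 9.08% lower.

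**Figure D3:**
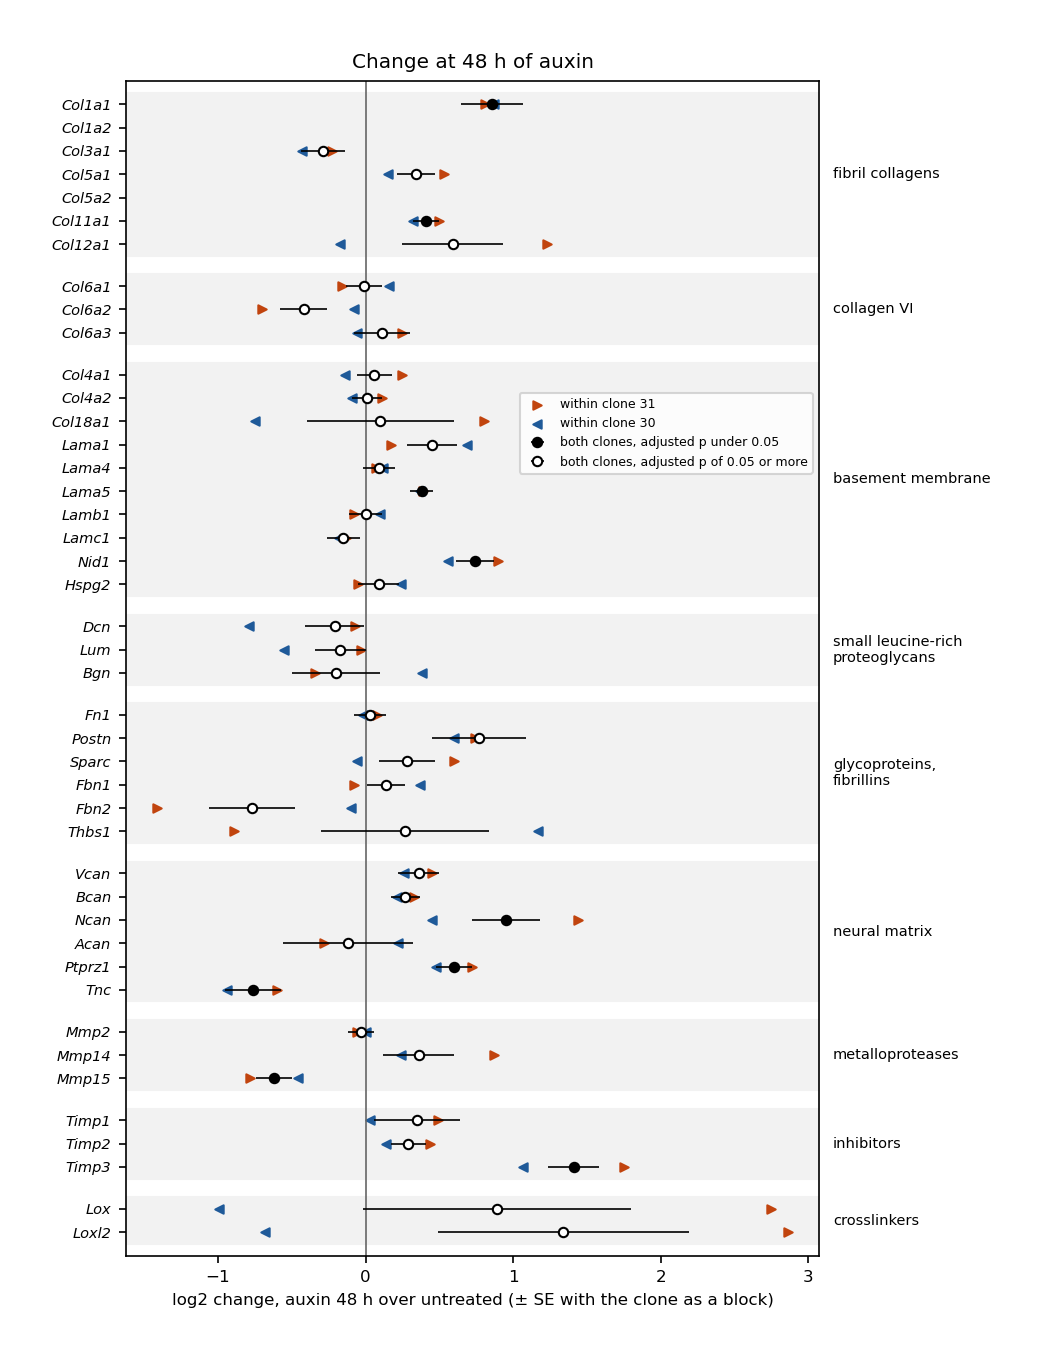
Log2 change at 48 h of auxin over untreated for the 41 genes tested, with SE, from edgeR with the clone as a block (circles, filled for an adjusted p under 0.05), and the change within each clone (orange triangles clone 31, blue triangles clone 30). Timp3 is highest among the filled points at 1.41 and Tnc lowest at -0.76; for Lox and Loxl2 the clones lie on opposite sides of 0.

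Glial markers moved with 48 h of auxin as well. Of 8 astrocyte markers, 6 were higher at 48 h in the fit with the block (Aldh1l1, Aldoc, Gfap, Gja1, S100b and Slc4a4), and the list summed to between 640 and 1468 CPM in clone 31 and between 887 and 1421 CPM in clone 30 over the times. Of 6 tested oligodendrocyte-lineage markers, 3 were higher (Cnp, Gpr17 and Pdgfra), while Mog and Mag stayed at or near 0. The mesenchymal list had 0 of 11 genes higher and 2 lower (Foxc1 and Thy1). Over all genes, 8.35% were higher and 9.08% lower in this fit. With treatment group alone edgeR called 0 genes in each of these lists. Neurocan, brevican and Ptprz1 are known products of astrocyte and oligodendrocyte precursors. The part of these marker changes in the matrix changes was not tested.

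At 48 h against 24 h, a comparison that uses the same 48 h libraries as the one with untreated cells, the fit with the block called 9 of 41 genes, 6 higher at 48 h (Bcan, Col11a1, Col1a1, Nid1, Ptprz1 and Timp3) and 3 lower (Fbn2, Mmp15 and Tnc). The background was 26.1% of all genes (12.3% higher and 13.9% lower). Without the block edgeR called 0 of 41 genes and 0% of all genes, and DESeq2 called 7 (15.8% of all genes). Fbn2, the fibrillin of embryonic tissue, had 189, 232 and 71.1 CPM in clone 31 and 59.0, 123 and 55.1 CPM in clone 30, with a peak at 24 h in both (log2 change of 48 h over 24 h -1.41 ± 0.29, edgeR with the block, adjusted p = 0.0238). Tnc fell by 1.11 ± 0.19 on the log2 scale between these times (edgeR with the block, adjusted p = 0.0176), having been highest at 24 h in both clones. Timp3 rose by 1.49 ± 0.17 (edgeR with the block, adjusted p = 0.0162). Leaving out either 24 h library gave 0 calls (at most 0.0183% of all genes), and leaving out the 48 h library of clone 30 gave 22, with 44.4% of all genes called.

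After 24 h of auxin, no matrix gene was called. With the clone as a block edgeR called 0 of 41 genes and 0% of all genes, and 5 of the 41 (Col3a1, Col11a1, Lama5, Hspg2 and Fbn1) had an unadjusted p under 0.05, as did 988 of 16007 genes. With treatment group alone edgeR also called 0 of 41 and 0% of all genes (2 at an unadjusted p under 0.05), and DESeq2 with the block called 0 of the 41 genes. Hspg2 had the lowest adjusted p with Lama5: it stood at 284, 349 and 273 CPM in clone 31 and at 206, 356 and 243 CPM in clone 30, with both 24 h libraries above the untreated ones (log2 change at 24 h 0.54 ± 0.14, edgeR with the block, adjusted p = 0.663). The changes at 24 h had the same sign in both clones for 35 of 41 genes (85.4%, against 63.4% of all genes kept), and at 48 h for 25 of 41 (61.0%, against 72.2% of all genes). Both comparisons use the same untreated libraries.

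By size, the response to 48 h of auxin differed most between the clones in the crosslinking enzymes. A term for a 48 h response that differs between the clones was called for 5 of 41 genes (background 4.47% of all genes), 4 with the larger response in clone 31 (Loxl2, Lox, Col18a1 and Col12a1; background 2.36%) and 1 with the smaller one (Thbs1; background 2.11%). The term sets 48 h against the untreated and 24 h libraries of the same clone pooled. This fit leaves 1 residual degree of freedom, and each value rests on the 48 h library of each clone. Lox stands under 5 CPM on average and is named for its call.

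Loxl2, a lysyl oxidase-like enzyme that crosslinks collagen IV (chr14:69609068-69695834), had 15.3, 9.70 and 112 CPM in clone 31 and 24.5, 9.40 and 15.3 CPM in clone 30. Both clones were lower at 24 h than untreated, and only the 48 h library of clone 31 was far above the rest. The difference of the responses was 3.22 ± 0.29 on the log2 scale (edgeR interaction, adjusted p = 0.0097). Lox, the lysyl oxidase of collagen and elastin, had 0.375, 0.213 and 2.86 CPM in clone 31 and 2.57, 0.90 and 1.26 CPM in clone 30, a difference of 3.68 ± 0.46 (edgeR interaction, adjusted p = 0.0106). DESeq2 did not call Lox.

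Col12a1, a fibril-associated collagen, had 76.3, 90.1 and 179 CPM in clone 31 and 63.0, 70.1 and 56.0 CPM in clone 30 (difference of the responses 1.36 ± 0.12, edgeR interaction, adjusted p = 0.00466). Col18a1 at 48 h stood higher than untreated by 0.80 and than 24 h by 1.22 on the log2 scale in clone 31, and its changes in clone 30 were -0.75 and -1.08. The fitted difference of the responses was 1.93 ± 0.32 (edgeR interaction, adjusted p = 0.0497). Under the 3 other scalings Col18a1 lost this call. Thbs1, an activator of latent TGF-beta, had 7.65, 6.29 and 4.11 CPM in clone 31 and 3.49, 2.25 and 7.95 CPM in clone 30 (-2.26 ± 0.27, edgeR interaction, adjusted p = 0.00956). In all, 16 of the 41 genes had log2 changes of opposite sign in the 2 clones at 48 h.

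**Figure D4:**
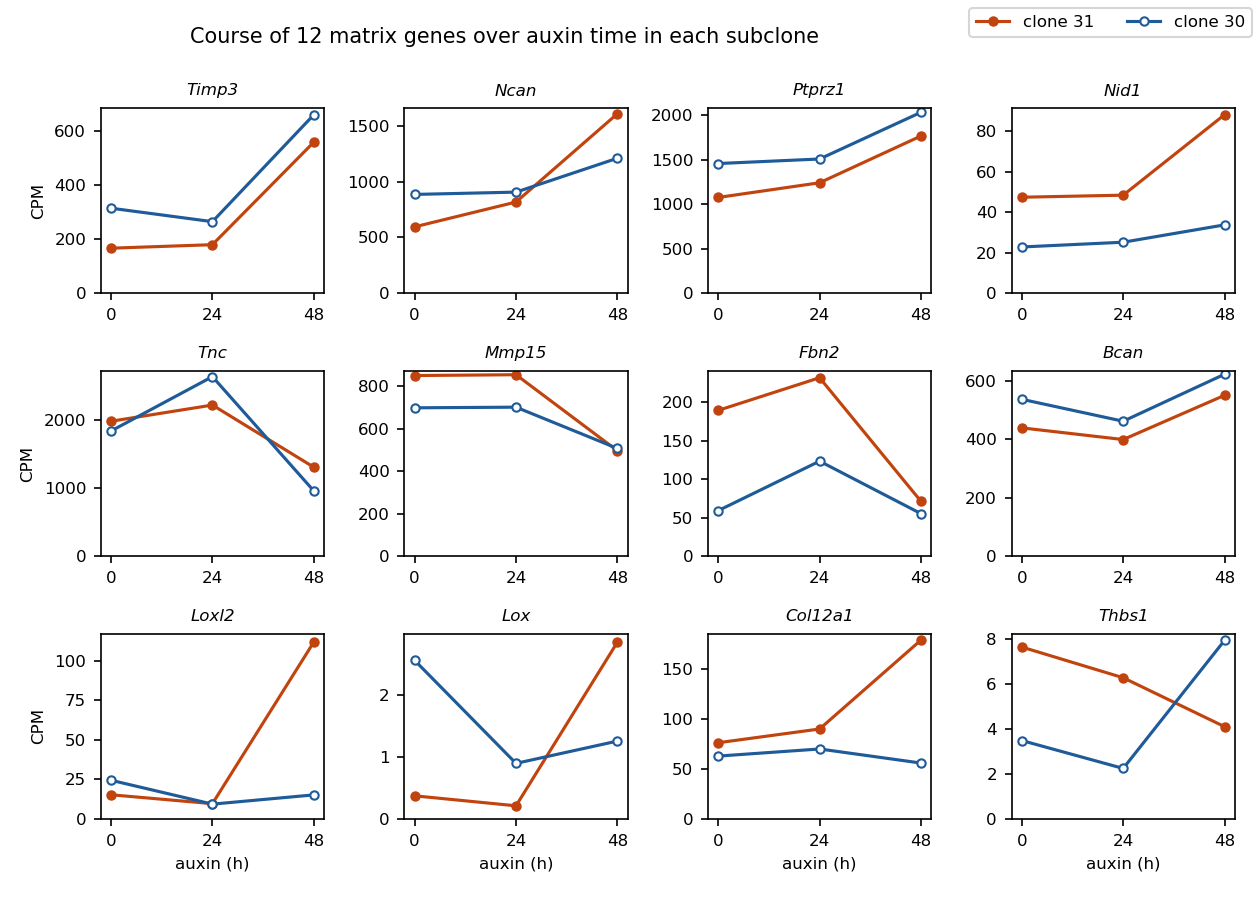
CPM of 12 genes at 0, 24 and 48 h of auxin in clone 31 (filled orange) and clone 30 (open blue), 1 library per point, each axis starting at 0. Timp3, Ncan, Ptprz1 and Nid1 end highest at 48 h in both clones and Tnc and Mmp15 lowest, whereas Loxl2, Lox and Col12a1 are highest at 48 h in clone 31 and not in clone 30, and Thbs1 is highest at 48 h in clone 30 and lowest in clone 31.

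Other genes of the same pathways were read from further lists, whose counts at 48 h stand beside the background of 8.35% higher and 9.08% lower. With treatment group alone edgeR called 0 genes in each of these 7 lists. Of 19 tested genes of other basement membrane proteins, 5 rose at 48 h in the fit with the block and 0 fell: Lamb2, Nid2, Papln, Pxdn and Smoc1. Nid2, the second nidogen, had 134.5, 128 and 223 CPM in clone 31 and 66.4, 64.3 and 104 CPM in clone 30 (untreated, 24 h and 48 h), a log2 change at 48 h of 0.69 ± 0.08 (edgeR with the block, adjusted p = 0.0238). Of 22 tested other neural matrix genes 3 rose (Agrn, Gpc2 and Has2) and 2 fell (Has3 and Matn2). Among 20 tested enzymes of chondroitin sulphate chains 1 rose (Chst3) and 5 fell (B3galt6, Chpf, Chst12, Chsy3 and Dse). Chsy3, a chondroitin synthase, had 2.68 and 2.72 CPM at 48 h in clones 31 and 30, against 15.1 and 8.31 CPM untreated (-2.07 ± 0.25, edgeR with the block, adjusted p = 0.0238).

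Of 27 tested matrix receptors 2 rose (Ddr1 and Itgb8) and 6 fell (Cd44, Hmmr, Itga1, Itga5, Itga8 and Itga9). Itga9, an integrin chain that binds tenascin C, had 8.401 and 10.9 CPM at 48 h in clones 31 and 30, against 42.3 and 30.8 CPM untreated (log2 change -1.93 ± 0.23, edgeR with the block, adjusted p = 0.0238). Of 21 other matrix proteases and inhibitors 5 rose and 5 fell. Adamts5, an aggrecanase, had 21.7 and 8.86 CPM at 48 h in clones 31 and 30, against 86.9 and 25.9 CPM untreated (-1.80 ± 0.20, adjusted p = 0.0238 by edgeR with the block). Timp4 rose by 1.12 ± 0.14 (edgeR with the block, adjusted p = 0.0238), with 38.4 and 46.2 CPM at 48 h in clones 31 and 30, against 15.6 and 23.7 CPM untreated. In the collagen biosynthesis list 0 of 25 rose and 3 fell (Adamts14, Crtap and P3h2), and of 20 TGF-beta pathway genes 3 rose (Ltbp3, Ltbp4 and Tgif1) and 1 fell (Tgfbr2). P3h2, a collagen prolyl 3-hydroxylase, had 13.0 and 7.11 CPM at 48 h in clones 31 and 30, against 45.7 and 18.3 CPM untreated (-1.61 ± 0.16, adjusted p = 0.0238 by edgeR with the block).

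Between the clones, 8 of 25 collagen biosynthesis genes were higher in clone 31 (background 7.58%), among them the collagen chaperone Serpinh1 and the procollagen proteinase Tll1, and 4 were lower (Adamts14, Adamts2, Bmp1 and Pcolce; background 8.58%). Of 18 tested TGF-beta genes 7 were higher and 3 lower, and of 26 tested matrix receptors 2 were higher and 7 lower. The 48 h response was larger in clone 31 for P4ha1 and Plod2, hydroxylases of collagen prolines and lysines, out of 25 biosynthesis genes (background 2.36%). It was smaller for Tll1 (background 2.11%).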

How the data were processed

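RNA was sequenced from 6 libraries, 1 per subclone and time, after RNeasy extraction and TruSeq RNA v2 preparation, per the labels' protocols. The authors deposited raw read counts per gene, made with featureCounts 1.6.1 with strand setting 2 on Ensembl release 92 (GRCm38) per the file headers, which also give each gene's exon length in bp. R 3.4.2 and DESeq2 are named in the submitters' processing notes. The aligner's version is not given in the sources used here. Strand separation was checked on 156 pairs, in which all exons of 1 gene lay within exons of a gene on the other strand. The stronger gene had 6000 counts or more, and the median ratio of counts per bp was 0.0012.

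From these counts, genes were filtered with edgeR's filterByExpr, scaled with TMM factors and tested with edgeR 4.0.16 (limma 3.58.1, DESeq2 1.42.0, R 4.3.3) by quasi-likelihood with Benjamini-Hochberg adjustment over all genes kept, at 0.05. Each SE was taken as the size of the log2 change over the root of its F statistic. Changes within a clone were read from log2 CPM (prior count 2), and the detection floor was 3 counts. The fit planned first has treatment group alone. The clone number pairs libraries, since both carry the same subclone: deviations from the group means correlated at 0.80 for untreated with 24 h, 0.58 for untreated with 48 h, and 0.71 between the auxin groups, over 16007 genes, so values with the clone as a block are printed beside it. Clones were compared with group and clone as terms.

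A rule set which genes were given library by library. Per role and comparison it took up to 4 with the smallest p among those at 5 CPM or more on average. Per further list it took up to 3. Other genes were named as called or not called, and some markers as at or near 0. Bgn, Postn, Timp1, Col1a1, Col6a3, Lox, Acan and Spen fall outside the rule and were named after their values were seen, as were genome neighbours. Lama1 and Col18a1 also fall outside the rule in the clone comparison. The 43 genes and all lists were chosen with earlier results of these data known. On simulated data the fit without the block recovered none of the changes, the block and clone tests recovered most of the larger ones, the interaction test a minority, and these 3 tests made more false calls than the threshold allows. Alternatives were other scalings, filters and tools, the block, and each library left out.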

Additional observations from a re-analysis of the deposited data

Results flagged for a closer look

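For 5 genes the response to 48 h of auxin differed between the clones by the interaction test (edgeR, adjusted over 16007 genes), which sets 48 h against the untreated and 24 h libraries of each clone pooled. The fitted difference, clone 31 minus clone 30 on the log2 scale, was 3.68 for Lox, 3.22 for Loxl2, 1.93 for Col18a1, 1.36 for Col12a1 and -2.26 for Thbs1. Against untreated alone, with no test, the changes at 48 h in clone 31 and clone 30 were 2.75 and -0.99 for Lox, 2.86 and -0.68 for Loxl2, 0.80 and -0.75 for Col18a1, 1.23 and -0.17 for Col12a1, and -0.89 and 1.17 for Thbs1. Col18a1 also moved in opposite directions at 24 h, by -0.42 in clone 31 and 0.33 in clone 30, a difference of -0.75 that was not tested. Each of these values rests on the single 48 h or 24 h library of each clone.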

How the results depend on the processing

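Counts of called matrix genes depended on the clone term and on single libraries, and the share of all genes called moved too. At 48 h against untreated this share was 0% by the fit planned first and 10.4% by DESeq2. With the block on all 6 libraries it was 12.1% to 21%. At 48 h against 24 h the shares were 0%, 15.8% and 16.4% to 29.1%. Between the clones it was 11% to 17.4% under other scalings, filters and tools, and 3.65% without the treatment term. For the interaction it was 4.47%, and from 1.76% (DESeq2) to 7.49% (no filter) under other scalings, filters and tools. At 48 h against untreated, 0 genes were called by the fit planned first, 5 by DESeq2, 9 with the replicate block, 9 with the block under DESeq2 size factors, total counts, 1 CPM, no filter, DESeq2 or voom, 8 under upper-quartile scaling and 0 with only the 4 libraries compared. Leaving out 1 library gave 0 to 21. At 48 h against 24 h, the counts were 0 by the fit planned first, 1 with no filter, 7 by DESeq2 and, with the block, 9, 9 (DESeq2 size factors), 11 (upper quartile), 12 (total counts), 10 (1 CPM), 11 (no filter), 14 (DESeq2), 10 (voom) and 11 (4 libraries), with 0 to 22 when 1 library was left out. At 24 h, leaving out 1 library gave 0 to 1. The clone comparison made 24 calls, and 23 to 26, not all for the same genes, under other scalings, filters and tools, 17 to 32 without 1 library and 18 without the treatment term. The interaction gave 5 calls, 4 under each of the 3 other scalings, 5 with 1 CPM, DESeq2 or voom, and 9 with no filter. It leaves 1 residual degree of freedom, so no library could be left out.

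Some log2 changes differed in sign between fits that each left out 1 library, with or without the clone as a block. Without the block, the group that lost a library held 1 clone, so the level difference between the clones enters the change. Without 1 library, the log2 change at 48 h against untreated ran from -1.44 to 1.76 for Col18a1 and from -0.95 to 1.28 for Thbs1. That at 48 h against 24 h ran from -0.52 to 1.18 for Col12a1 and from -1.70 to 2.18 for Col18a1. The cause of these shifts was not tested. Depth limits Col1a2, Col5a2 and, in clone 30, Bgn.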
